A study of Mus musculus with 6 samples.

Results

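The genes described here encode the machinery of G2 and mitosis: the cyclins and kinases that start mitosis, the centromere and kinetochore, the spindle and its checkpoint, condensin and the proteins of cytokinesis. They were taken by symbol from a list of 38 genes, and all 38 were among the 24453 symbols of each count file and among the 14700 genes with enough counts to be tested. RNA came from the epidermis of newborn mice (postnatal day 0, back skin), sorted as positive for EpCAM and Sca1 and high for α6-integrin, a gate that enriches progenitors of the epidermis between hair follicles. There were 3 libraries labelled control and 3 labelled Eed cKO, whose genotype is given as Eed-/-. The labels name no Cre driver, no deleted exons, no strain and no allele for the controls, and do not say that each library was a separate animal. P-values therefore reflect the spread between libraries alone, which may be technical.

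Eed is a core subunit of Polycomb repressive complex 2, which methylates histone H3 and keeps developmental genes silent. Cells that enter mitosis build up cyclin B with the kinase Cdk1, condense their chromosomes with condensin and topoisomerase II, and attach them to the spindle through the kinetochore. A checkpoint holds the anaphase-promoting complex (APC/C) inactive until all chromosomes are attached, and the midzone of the spindle then directs cytokinesis. In the epidermis this takes place mostly in the basal layer, and transcripts of these genes are used as a readout of dividing cells.

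Control libraries held 25481306 to 29998531 counts, and Eed cKO libraries 20998149 to 27447679. Eed itself was at 41.1 to 53.1 CPM (counts-per-million, after TMM scaling of library sizes) in control and at 29.2 to 37.0 CPM in Eed cKO (log2 fold change -0.48 ± 0.19 SE, edgeR adjusted p 0.252); it was not called. Since the labels do not name the deleted exons, a count over the whole gene is a weak check of the deletion. Among keratinocyte markers, Krt5 was at 18400 CPM or more and Trp63 at 1420 CPM or more in every library. Trp63 ran from 1990 to 2100 CPM in control and from 1420 to 1750 CPM in Eed cKO. Krt15 ran from 2790 to 3440 and from 1770 to 2780 CPM, so the ranges of both genes were apart. Those of Krt5, Krt14, Itga6 and Ly6a overlapped. Epcam was higher in Eed cKO (64.5 to 104 CPM in control, 120 to 151 CPM in Eed cKO). Ly6a was at 74.5 CPM or less in every library.

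All 38 genes had a negative log2 fold change in Eed cKO against control, with a median of -0.55 and a range from -0.92 to -0.15. The median over all 14700 genes was -0.01, and 51.3% of them were negative, as were 58.3% of genes with a mean of at least 50 CPM. In the quasi-likelihood test of edgeR, adjusted over all genes by Benjamini-Hochberg, 4 of the 38 fell at an adjusted p under 0.05 (10.5%) and 0 rose, where 0.816% of all genes tested and 1.64% of genes with a mean of at least 50 CPM were called lower. The 4 were Mki67, Top2a, Aurkb and Smc2, and the other 34 did not pass. The count was 11 without control 1 and between 1 and 3 without any other single library. At an unadjusted p under 0.05, 23 of the 38 were lower and 0 higher, against 6.24% of all genes tested that were lower at that p. The 38 genes shifted together between libraries, with control 1 the lowest control for 34 of them. These counts are therefore not of independent observations. In these bulk libraries fewer dividing cells and less of these transcripts per dividing cell cannot be told apart.

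The differences were moderate in size. Mean CPM was at least 1.5-fold lower in Eed cKO for 14 of the 38 genes, and at least 2-fold lower for 0. Of the 19 genes above the list's median control CPM 4 were called, and of the 19 below it 0. The plot of fold changes by role shows every estimate to the left of 0.

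**Figure D1:**
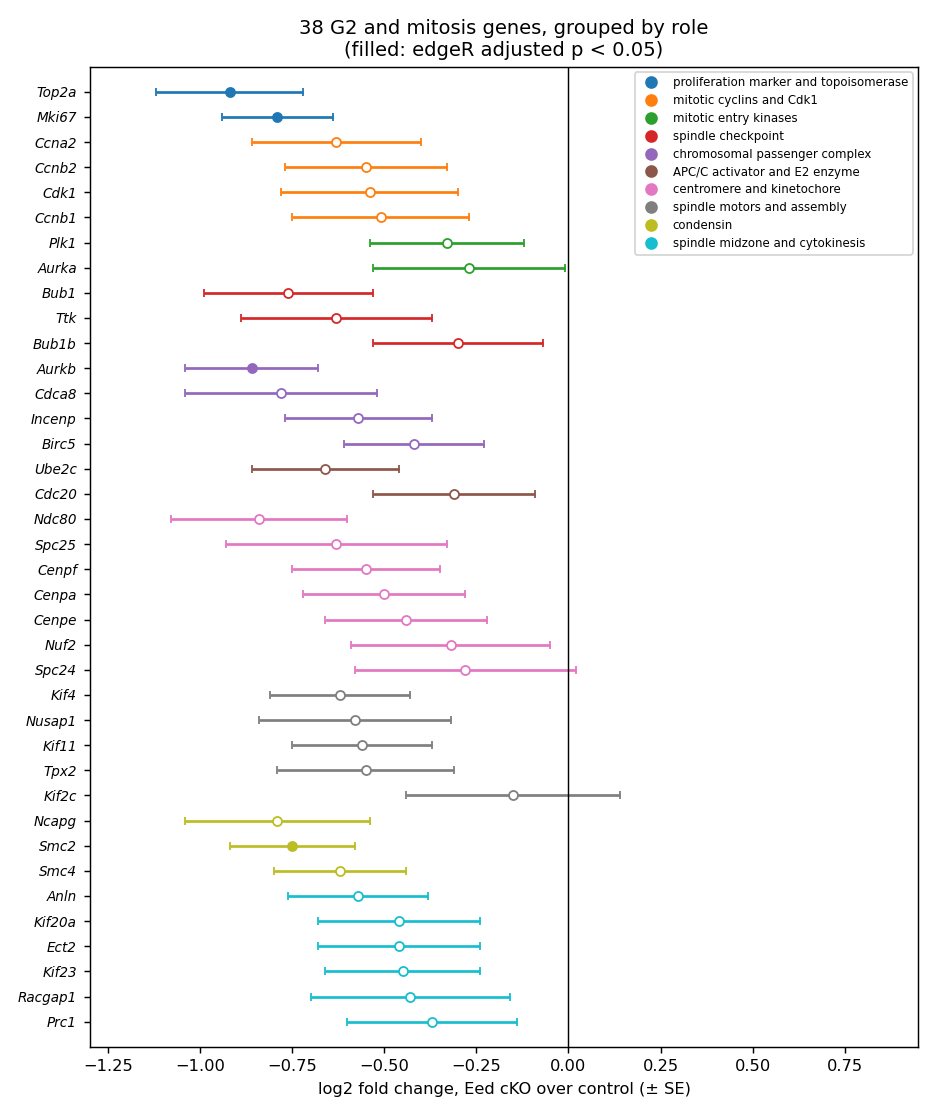
Log2 fold change of each of the 38 genes (Eed cKO over control, x axis), coloured and grouped by role. Bars are ± SE derived from the edgeR test (3 libraries a group). Filled points have an edgeR adjusted p under 0.05. All 38 points are below 0, from -0.92 for Top2a to -0.15 for Kif2c, and 4 are filled.

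Promoters of mitotic genes are known for a short element, the cell cycle genes homology region (CHR), bound by MuvB complexes together with B-Myb and FoxM1 or with the repressive DREAM proteins, and for CCAAT boxes bound by NF-Y. Promoter windows from RefSeq (GRCm38.p6; 250 bases before to 50 bases after a transcript start) were found for 31 of the 38 genes. They were searched on both strands for the CHR letters TTTGAA and TTCGAA and for CCAAT. The upstream 250 bases are printed here for the called genes that had a window, to show how these elements are laid out in genes that were lower together, with the matches in capitals (TTCAAA and ATTGG are matches on the opposite strand, TTCGAA reads the same on both, and no printed match overlaps another). Mki67 lies at chr7:135716380-135716629 on the minus strand, Top2a at chr11:99024190-99024439 on the minus strand and Smc2 at chr4:52438971-52439220 on the plus strand.
Mki67: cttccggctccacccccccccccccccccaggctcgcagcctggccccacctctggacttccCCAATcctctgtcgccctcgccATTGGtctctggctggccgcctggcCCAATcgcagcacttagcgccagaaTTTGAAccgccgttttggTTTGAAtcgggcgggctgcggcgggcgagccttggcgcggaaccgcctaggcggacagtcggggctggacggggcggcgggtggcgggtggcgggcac
Top2a: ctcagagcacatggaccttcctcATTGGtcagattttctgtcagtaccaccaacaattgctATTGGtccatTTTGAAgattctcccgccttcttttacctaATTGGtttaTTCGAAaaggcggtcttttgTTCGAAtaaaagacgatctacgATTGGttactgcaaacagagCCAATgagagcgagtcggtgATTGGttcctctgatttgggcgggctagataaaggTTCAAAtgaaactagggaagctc
Smc2: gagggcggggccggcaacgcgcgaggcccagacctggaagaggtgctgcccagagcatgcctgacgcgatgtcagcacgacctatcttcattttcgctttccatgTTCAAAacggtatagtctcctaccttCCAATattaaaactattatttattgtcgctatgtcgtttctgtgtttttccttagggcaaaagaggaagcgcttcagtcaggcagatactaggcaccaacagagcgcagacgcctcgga

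Mki67 had TTTGAA at 116 and 98 bases before its start, and Top2a had 4 CHR matches and 6 CCAAT matches. Smc2 had a match at 145 bases before the start and another that begins 27 bases into the transcript, outside the printed stretch. Aurkb was not matched to a window.

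Another 3 windows, of Ccnb2 (chr9:70421555-70421804, minus strand), Cdk1 (chr10:69352913-69353162, minus strand) and Cdc20 (chr4:118437344-118437593, minus strand), were chosen after the search because they show evenly spaced CCAAT boxes or a CHR close to the start.
Ccnb2: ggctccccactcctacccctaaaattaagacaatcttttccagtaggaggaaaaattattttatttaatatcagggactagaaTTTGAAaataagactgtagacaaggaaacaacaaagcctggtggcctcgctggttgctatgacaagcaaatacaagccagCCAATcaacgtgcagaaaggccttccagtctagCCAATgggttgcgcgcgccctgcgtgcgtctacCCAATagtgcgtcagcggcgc
Cdk1: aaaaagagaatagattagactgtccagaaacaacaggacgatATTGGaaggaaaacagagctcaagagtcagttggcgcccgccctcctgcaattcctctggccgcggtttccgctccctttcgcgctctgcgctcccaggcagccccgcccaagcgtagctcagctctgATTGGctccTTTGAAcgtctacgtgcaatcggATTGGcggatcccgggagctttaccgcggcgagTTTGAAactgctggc
Cdc20: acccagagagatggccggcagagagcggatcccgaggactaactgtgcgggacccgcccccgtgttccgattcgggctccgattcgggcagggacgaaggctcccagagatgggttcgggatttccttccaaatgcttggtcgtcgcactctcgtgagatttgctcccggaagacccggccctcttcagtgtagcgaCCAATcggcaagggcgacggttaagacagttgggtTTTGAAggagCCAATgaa

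In Ccnb2 the CCAAT boxes began 87, 54 and 21 bases before the start, and TTTGAA began 167 bases before the start and at base 5 of the transcript. In Cdk1 the reverse-strand boxes began 208, 80 and 48 bases before the start with TTTGAA at 71 and 15. Of the 31 genes with a window, 26 (83.9%) held a CHR match, against 21.7% of 27025 genes with a window, 54.7% of 86 other mitosis genes and 20.8% of 48 genes of DNA replication and S phase. Within 50 bases of the start the share was 77.4% of the 31 and 6.12% of all genes. It was 39.5% of the other mitosis genes and 8.33% of the S-phase genes. A CCAAT box was present in 80.6% of the 31, 61.6% of other mitosis genes, 58.3% of S-phase genes and 41.1% of all genes. A pair in the same orientation 31 to 34 bases apart was present in 22.6%, 8.14%, 4.17% and 1.04%, in the same order. Matches describe letters in the window and do not show that a factor was bound.

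Mki67 encodes the Ki-67 protein that coats mitotic chromosomes and marks cycling cells, and Top2a the topoisomerase that untangles sister chromatids. Mki67 was at 1627, 1669 and 1395 CPM in control libraries 1, 2 and 3 and at 939, 857 and 911 CPM in Eed cKO libraries 1, 2 and 3. The groups were far apart, with the highest Eed cKO library well under the lowest control. Its mean fell from 1564 ± 147 to 902 ± 41.8 CPM (SD, n = 3 each; log2 fold change -0.79 ± 0.15 SE, edgeR adjusted p 0.00765), and it was called in each of the 6 fits that leave out 1 library. Per kilobase of exon it had the highest control level of the 38 genes, 155 CPM per kb.

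Top2a was at 515, 696 and 663 CPM in control 1, 2 and 3 and at 252, 421 and 320 CPM in Eed cKO 1, 2 and 3. Control 1 was the lowest control and Eed cKO 2 the highest Eed cKO library, and the ranges did not overlap. Its log2 fold change of -0.92 ± 0.20 SE was the most negative of the 38 (edgeR adjusted p 0.0164). It no longer passed when control 2, control 3, Eed cKO 1 or Eed cKO 3 was dropped (highest edgeR adjusted p 0.0906). Its exons share 122 bases with another annotated gene. On GRCm38, Mki67 lies on chromosome 7 from 135689784 to 135716361, Top2a on chromosome 11 from 98992943 to 99024189, Aurkb on chromosome 11 from 69045647 to 69051664 and Smc2 on chromosome 4 from 52439243 to 52488260; the 38 genes lie on 15 chromosomes.

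**Figure D2:**
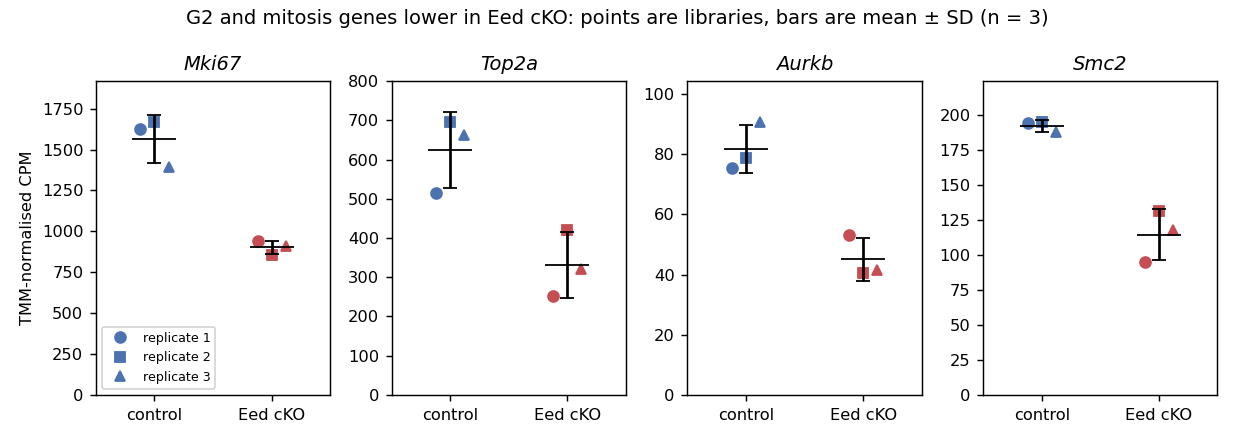
TMM-normalised CPM (y axis, from 0, a separate scale for each gene) of the 4 called genes in each library, with mean ± SD of 3 libraries a group; marker shapes are replicate numbers. In all 4 panels the 3 Eed cKO libraries lie below the 3 controls, and Mki67 falls from a mean of 1564 to 902 CPM.

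Ccna2, Ccnb1 and Ccnb2 encode the cyclins that activate Cdk1 around mitotic entry. None of these genes or Cdk1 passed the test, with log2 fold changes from -0.63 for Ccna2 to -0.51 for Ccnb1 and adjusted p from 0.171 to 0.337 in edgeR. Ccnb1 was at 23.98, 46.1 and 39.1 CPM in control 1, 2 and 3 and at 25.4, 25.6 and 25.6 CPM in Eed cKO 1, 2 and 3. All Eed cKO libraries were nearly equal, and control 1 was slightly below each of them. Cdk1 also had control 1 below every Eed cKO library, at 28.2, 52.2 and 52.4 CPM in control and 29.4, 33.0 and 28.7 CPM in Eed cKO. Ccna2 was at 98.1, 200.0 and 138 CPM in control and at 85.5, 91.4 and 105 CPM in Eed cKO. Control 1 alone among its controls lay inside the Eed cKO range. Without control 1, Ccna2 was called (log2 fold change -0.85, edgeR adjusted p 0.0321).

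The kinases Aurka and Plk1 mature the centrosomes and trigger entry, and neither passed. Plk1 was at 25.4, 29.7 and 33.2 CPM in control and 24.05, 26.2 and 20.1 CPM in Eed cKO, with ranges that overlapped (log2 fold change -0.33 ± 0.21 SE, edgeR adjusted p 0.544). Aurka had -0.27 ± 0.26 SE on the same scale (edgeR adjusted p 0.732). Both were under 30 CPM in control, as were 6 of the 38 genes.

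Bub1, Bub1b and Ttk encode kinases and a kinase-like protein of the spindle checkpoint, and 0 of the 3 passed. Bub1 was at 33.7, 65.4 and 56.9 CPM in control and at 29.2, 32.1 and 30.98 CPM in Eed cKO. Its ranges were apart by a narrow gap at control 1, its log2 fold change was -0.76 ± 0.23 SE and its edgeR adjusted p 0.0997. Without control 1 it was called (edgeR adjusted p 0.0141). Ttk had a log2 fold change of -0.63 and Bub1b one of -0.30, and the Eed cKO 2 value of Bub1b, 86.7 CPM, lay inside its control range of 65.9 to 93.2 CPM.

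The chromosomal passenger complex joins the kinase Aurora B (Aurkb) to Incenp, survivin (Birc5) and borealin (Cdca8) and corrects faulty attachments. Aurkb was at 75.6, 78.7 and 90.8 CPM in control 1, 2 and 3 while Eed cKO 1, 2 and 3 had 53.3, 40.6 and 41.4 CPM. Every Eed cKO library was below every control library. Its mean fell from 81.7 ± 8.002 to 45.1 ± 7.09 CPM (SD, n = 3 each; log2 fold change -0.86 ± 0.18 SE, edgeR adjusted p 0.0162). Dropping control 3, Eed cKO 2 or Eed cKO 3 ended the call (highest edgeR adjusted p 0.0966). The other subunits were negative without passing, at -0.78 for Cdca8, -0.57 for Incenp and -0.42 for Birc5. Birc5 had the tightest controls of the 4, at 37.2, 36.4 and 38.04 CPM, and its Eed cKO values of 26.9, 30.7 and 26.0 CPM did not overlap them (edgeR adjusted p 0.319). Cdca8 was called without control 1 (log2 fold change -0.99).

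Cdc20 activates the APC/C and Ube2c supplies it with ubiquitin. Ube2c was at 86.3, 129.7 and 105 CPM in control and at 79.7, 57.2 and 65.8 CPM in Eed cKO, with ranges apart (log2 fold change -0.66 ± 0.20 SE, edgeR adjusted p 0.0835). Without control 1 it was called, at a log2 fold change of -0.80. Cdc20 differed less, with a log2 fold change of -0.31 and overlapping ranges. Ube2c shares 592 exonic bases with an overlapping gene and Cdc20 shares 53, so their counts are less certain.

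Of 7 centromere and kinetochore genes 0 passed, with log2 fold changes from -0.84 to -0.28. Ndc80, Nuf2, Spc24 and Spc25 form the complex that binds microtubules. Ndc80 was at 33.3, 63.5 and 51.4 CPM in control and at 23.4, 32.6 and 26.9 CPM in Eed cKO (log2 fold change -0.84 ± 0.24 SE, edgeR adjusted p 0.0762; called without control 1, at -1.06). Spc25 had a log2 fold change of -0.63 ± 0.30 SE (edgeR adjusted p 0.355), Nuf2 one of -0.32 and Spc24 one of -0.28, all with overlapping ranges. In Spc24 the difference rested on Eed cKO 3. Its values were 18.3, 15.6 and 16.8 CPM in control and 18.4, 15.2 and 8.18 CPM in Eed cKO, and without Eed cKO 3 its log2 fold change was -0.01. Whether Ndc80 differed from its partners was not tested. Cenpa, the histone variant of centromeric chromatin, and Cenpe and Cenpf, a motor and a coat protein of the outer kinetochore, had log2 fold changes of -0.50, -0.44 and -0.55.

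Among the spindle genes Kif11, Kif2c, Kif4, Nusap1 and Tpx2, 0 of 5 passed. Kif11, the motor that pushes the poles apart, was at 179, 223 and 225 CPM in control and at 110, 144 and 172 CPM in Eed cKO (log2 fold change -0.56, edgeR adjusted p 0.137). Kif4, a chromosome-bound motor, was at 105, 134 and 127 CPM in control and 73.1, 97.4 and 68.2 CPM in Eed cKO (log2 fold change -0.62, edgeR adjusted p 0.0908), and shares 832 exonic bases with a neighbour. For both, all Eed cKO libraries lay under all controls. Kif2c, a microtubule depolymerase, had the smallest difference of the 38. It was at 14.3, 36.1 and 25.9 CPM in control and at 19.1, 26.0 and 23.5 CPM in Eed cKO, so the controls enclosed the Eed cKO values. Its log2 fold change of -0.15 ± 0.29 SE became 0.20 without control 2 and -0.44 without control 1. Nusap1, which bundles spindle microtubules, was at -0.58 on the same scale (edgeR adjusted p 0.322). Tpx2, which starts microtubule growth around chromosomes, was called without control 1 (log2 fold change -0.81, edgeR adjusted p 0.0395), as it was not with all libraries (edgeR adjusted p 0.284).

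Condensin folds mitotic chromosomes; Smc2 and Smc4 are its ATPase subunits and Ncapg a subunit of condensin I. Smc2 was at 194, 195 and 188 CPM in control 1, 2 and 3 while Eed cKO 1, 2 and 3 had 94.9, 131 and 118 CPM. Its controls were close together and all Eed cKO libraries lay well under them. The mean fell from 192 ± 4.02 to 114.5 ± 18.3 CPM (SD, n = 3 each; log2 fold change -0.75 ± 0.17 SE, edgeR adjusted p 0.0197). Dropping control 2, control 3, Eed cKO 1 or Eed cKO 3 ended the call (highest edgeR adjusted p 0.0789). Smc4 was at 320.1, 447 and 395 CPM in control and at 209.9, 263 and 281 CPM in Eed cKO. It did not pass with all libraries (log2 fold change -0.62, edgeR adjusted p 0.0685) and was called without control 1 (edgeR adjusted p 0.0326). Ncapg had a log2 fold change of -0.79 ± 0.25 SE (edgeR adjusted p 0.101). Condensin was the only role in which every gene had ranges apart besides the pair Mki67 and Top2a.

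The midzone and cytokinesis genes Prc1, Kif20a, Kif23, Anln, Ect2 and Racgap1 had log2 fold changes from -0.57 for Anln to -0.37 for Prc1. None of the 6 passed and none had ranges apart. Anln, which encodes the furrow protein anillin, was at 201, 302 and 277 CPM in control and at 141, 209 and 177 CPM in Eed cKO, so control 1 and Eed cKO 2 crossed. Racgap1 and Kif23, which form centralspindlin, had log2 fold changes of -0.43 and -0.45, and the midzone motor gene Kif20a and Ect2 both had -0.46. Racgap1 ran at 50.2, 98.8 and 103 CPM in control and at 43.0, 75.2 and 69.0 CPM in Eed cKO, so 2 Eed cKO libraries were above control 1.

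Levels of different genes were compared only per kilobase of exon, in mean control CPM. After Mki67 the highest were Smc4 (74.3), Top2a (69.3), Ube2c (41.2) and Ccnb2 (36.4), and the lowest were Nuf2 (3.63) and Kif2c (5.82). Within the Ndc80 complex the highest subunit, Spc25, was 2.30-fold above the lowest, Nuf2. Within condensin Smc4 was 11.9-fold above Ncapg in control and 13.4-fold above it in Eed cKO. Smc4 and Smc2 also serve condensin II, whereas Ncapg belongs to condensin I alone.

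The libraries of a group were not alike in these genes. Control 1 was the lowest control for 34 of the 38, where it was so for 4994 of the 14700 genes tested. Its median over the list was -0.34 on the log2 scale relative to each gene's control mean, against 0.20 for control 2 and 0.13 for control 3. Among the Eed cKO libraries the medians were -0.73, -0.29 and -0.54 for 1, 2 and 3, so that Eed cKO 2 and control 1 were close. Eed cKO 1 was the lowest of all 6 libraries for 25 genes. Control and Eed cKO ranges did not overlap for 12 of the 38 genes, where 9.22% of all genes tested and 12.8% of those at 50 CPM or more had Eed cKO lower with ranges apart. With control 1 set aside, ranges were apart for 34 of the 38, where 14.9% of all genes were. These shares are not a like comparison. Setting aside the lowest control raises the bottom of the control range, and control 1 was the lowest far more often in the 38 than in all genes. Ranges with any other library set aside are not given, so the count of 34 does not show a clearer difference between genotypes. The map of the 38 genes by library shows control 1 as a mostly pale blue column, about as pale as Eed cKO 2. The columns of Eed cKO 1 and 3 are darker.

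**Figure D3:**
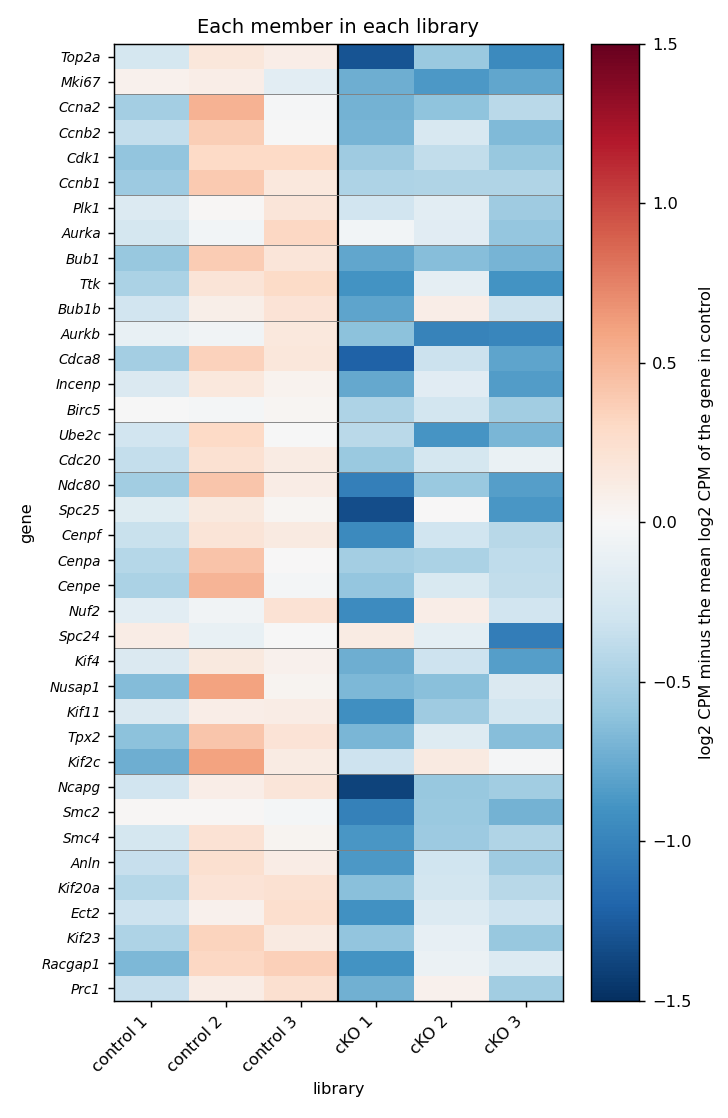
Log2 CPM of each gene (rows, ordered by role) in each library (columns) relative to the gene's mean log2 CPM in control; blue is lower and red higher. Control 1 is the lowest control for 34 of 38 genes, and Eed cKO 1 is the lowest of the 6 libraries for 25.

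The number of calls moved with control 1 and with most other libraries. Without control 1, 11 of the 38 genes were called lower, namely the 4 above with Ccna2, Bub1, Cdca8, Ube2c, Ndc80, Tpx2 and Smc4, where 0.570% of all genes tested were called lower in that fit. Dropping another control left 2 calls (control 2; 0.390% of all genes) or 1 (control 3; 0.230%). Dropping Eed cKO 1, 2 or 3 left 2, 3 or 1 calls, where 0.785%, 0.337% and 0.291% of all genes were called lower. Across the 6 such fits the median log2 fold change of the 38 lay between -0.71 and -0.41. With all libraries, other settings called as many genes of the 38 or more. The number was 13 with no filter on low counts (1.31% of all genes), 10 in DESeq2 (1.64% of genes with an adjusted p) and 15 with the replicate number as a block (1.83%). It was 4 with RLE scaling, upper-quartile scaling, a filter of 1 CPM in 3 libraries and limma-voom, where 0.782%, 0.694%, 0.901% and 0.823% of all genes were called lower.

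Other genes of mitosis and of the cell cycle were read from lists beside these. Of 108 further mitosis genes 12 fell and 0 rose (11.1% lower, where 0.816% of all genes tested were). Of the 108, 100 had a negative log2 fold change, and the median was -0.46. Among them Kntc1, a subunit of the RZZ complex of the kinetochore, was at 91.2, 92.2 and 104 CPM in control and 37.9, 62.1 and 45.9 CPM in Eed cKO (log2 fold change -0.98, edgeR adjusted p 0.0120). Sgol1, the shugoshin that protects centromeric cohesion, was at -0.95 on the log2 fold scale (edgeR adjusted p 0.0217), and Iqgap3, a cytoskeletal scaffold, one of -0.81 (edgeR adjusted p 0.0202). The list's calls numbered 14 without control 1 and 0 to 4 without any other single library; Kntc1 was not called when the dropped library was control 3 or Eed cKO 3, and Sgol1 and Iqgap3 each passed in 2 of the 6 such fits, without control 1 and without Eed cKO 3 for Sgol1 and without control 1 and without Eed cKO 1 for Iqgap3.

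Of 62 genes of DNA replication and S phase 10 fell and 0 rose (16.1% lower, where 0.816% of all genes tested were). All 62 were negative and the median was -0.60. In this list control 1 was not low: its median was -0.06, beside -0.83, -0.31 and -0.67 in Eed cKO 1, 2 and 3, and it was the lowest control for 46.8% of the genes. Ranges were apart with Eed cKO lower for 67.7% of the S-phase genes, 31.6% of the 38 and 9.22% of all genes tested. The difference between the lists was not tested. The S-phase calls fell to between 2 and 6 when any 1 library was left out.

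Factors of CHR and CCAAT promoters and their partners of the E2F and Rb families were taken as a list of 19 regulators. Of the 19, 3 fell and 0 rose (15.8% lower, where 0.816% of all genes tested were). The median log2 fold change was -0.29. Foxm1, the forkhead activator of G2 and M genes, was at 188, 170.2 and 167.5 CPM in control and at 105, 114 and 106 CPM in Eed cKO, with ranges well apart (log2 fold change -0.70 ± 0.15 SE, edgeR adjusted p 0.0187). That call held only without Eed cKO 1 among the 6 fits that leave out 1 library (edgeR adjusted p up to 0.0861). The atypical repressors E2f7 and E2f8 also fell, at -0.79 and -0.91 (edgeR adjusted p 0.0181 and 0.00436). E2f8 was called in all 6 such fits, and E2f7 in those without control 1, control 2 or Eed cKO 2. Mybl2, encoding B-Myb, was at -0.62 (edgeR adjusted p 0.220), and the MuvB genes Lin9, Lin37, Lin52 and Lin54 lay between -0.53 and -0.34 without passing. Rbbp4, in the same list, was at -0.23 (edgeR adjusted p 0.752). The NF-Y genes Nfya, Nfyb and Nfyc had log2 fold changes of -0.29, -0.12 and -0.29, and Rb1 one of 0.11. For 11 of the 19 regulators the lowest control was control 1, as it was for 4994 of the 14700 genes tested. Foxm1 and Mybl2 instead had their highest control value in control 1, the library in which 34 of the 38 mitotic genes had their lowest.

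**Figure D4:**
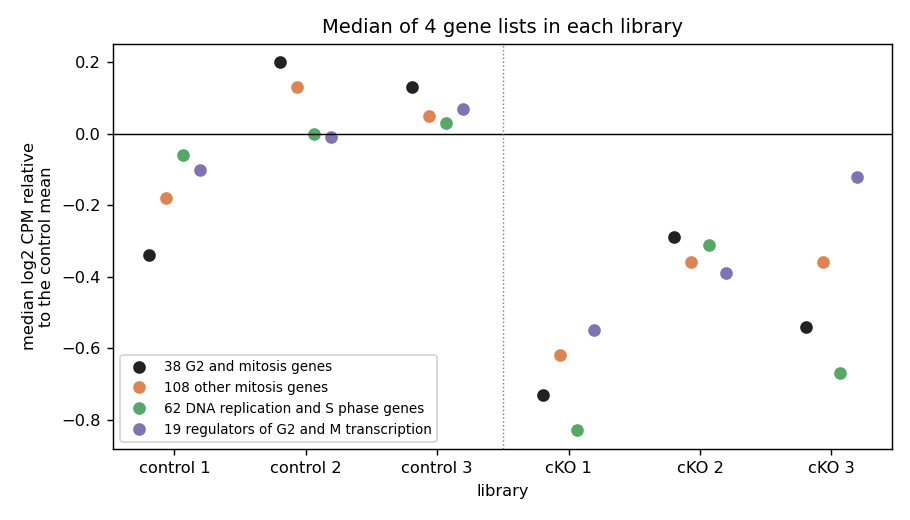
Median over each gene list (colours) of log2 CPM relative to the control mean of each gene (y axis) in each library (x axis). The 38 mitotic genes stand at -0.34 in control 1, where the S-phase genes stand at -0.06, and all 4 lists are below 0 in every Eed cKO library.

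Markers of other cells in the sort were read as whole lists. Of 21 suprabasal and cornified genes tested 6 rose and 0 fell, where 3.39% of all genes tested were called higher, and the summed level of the list ran from 3840 to 4770 CPM in control and from 5910 to 8830 CPM in Eed cKO. Krt10, the keratin of the spinous layer, was at 841, 754 and 946 CPM in control and 1551, 2428 and 2075 CPM in Eed cKO (log2 fold change 1.25, edgeR adjusted p 0.00126). Of 15 basal keratinocyte genes 1 rose, Epcam (log2 fold change 0.77; passed in 2 of 6 fits that drop 1 library), and 0 fell; the summed level was 46100 to 51200 CPM in control and 39800 to 49100 CPM in Eed cKO. Of 7 Merkel cell genes tested 3 rose, Isl1, Sox2 and Ncam1, each in all 6 such fits, and the summed level of the list was 16.3 to 33.3 CPM in control and 59.0 to 86.7 CPM in Eed cKO. All 14 macrophage and Langerhans genes tested had a negative log2 fold change, with a median of -0.95, beside -0.55 for the 38 mitotic genes. Of the 14, Cx3cr1 and F13a1 fell, each called in 1 of the 6 fits (14.3%, where 0.816% of all genes tested were called lower), and the sums of 206 to 694 CPM in control and 114 to 495 CPM in Eed cKO overlapped. The hair follicle list (of 14 genes Hoxc13 rose, in all 6 fits, and Krt71 fell, in 2) summed to 672 to 960 and 887.0 to 1061 CPM. No gene passed among the 6 fibroblast, 6 melanocyte, 4 endothelial and 1 T cell genes tested. The sums were 386 to 579 and 566 to 649 CPM for fibroblast and 9.26 to 27.3 and 12.6 to 22.6 CPM for melanocyte genes. They were 4.63 to 34.5 and 5.42 to 31.7 CPM for endothelial and 1.18 to 3.16 and 0.968 to 1.28 CPM for T cell genes. Each list's sum also takes in its genes that were not tested. No marker present in the files was at 0 in all libraries. The 45S ribosomal RNA locus Rn45s took 2.18% to 5.24% of counts in control and 6.78% to 7.26% in Eed cKO, and with it left out the median of the 38 genes was -0.54 with the same 4 genes called (0.762% of all genes lower). The part of the suprabasal, macrophage and other markers in the difference of the mitotic genes was not tested.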

How the data were processed

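The deposited files hold the authors' raw counts for each gene symbol, with a file per library, with no normalization. Every value is a whole number, and totals differ between libraries. Per the labels' protocols, 10 ng of total RNA was reverse transcribed and amplified before library construction. The build mm10 and the tools DESeq2 1.6.3, HTSeq 0.6.1, TopHat2 2.0.13 and Cufflinks 2.2.1 are listed in the submitters' processing notes without their roles. No source used here gives the annotation or the strand setting, so counts of the 11 genes of the 38 that share exonic bases with another gene are less certain. After amplification, reads are not independent molecules.

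Counts were fitted in R 4.3.3 with edgeR 4.0.16 (filterByExpr, TMM, quasi-likelihood F-test, genotype alone, Benjamini-Hochberg adjustment over all 14700 genes, threshold 0.05), which was tested on simulated data first. There it called 6.8% of tested genes changed 1.5-fold and 40.9% of those changed 2-fold, so most changes of 1.5-fold were missed. Of its calls, 5.28% were unchanged genes. A log2 fold change is Eed cKO over control, shrunk toward 0 by edgeR's prior count. Its SE was derived as the absolute log2 fold change divided by the square root of the F statistic. The 38 genes and the lists were chosen with earlier results of these data known, so no list was tested as a set and no p was adjusted over a list. All 38 genes and the 19 regulators were followed, with up to 3 called genes of smallest p from each other list; counts of the other called genes are given without names. The alternatives tried were DESeq2 1.42.0, limma-voom (limma 3.58.1), upper-quartile and RLE scaling, a replicate block, omitting Rn45s, no low-count filter or one of 1 CPM in 3 libraries, and dropping each library in turn. Gene positions, exonic lengths and overlaps on either strand come from GENCODE M21 (GRCm38, the same assembly as mm10). With 3 against 3 libraries an exact permutation test cannot go below 0.1. Figures were drawn with matplotlib 3.10.9.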

Additional observations from a re-analysis of the deposited data

How the results depend on the processing

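The direction of the 38 genes was the same under all 14 alternatives except for Kif2c, which ranged from -0.44 to 0.20 over the fits that leave out 1 library. Of 532 values, 487 kept their direction and their side of the threshold, 33 passed it only in the alternative and 11 only in the edgeR fit as reported. The other 1 was Kif2c without control 2, which changed sign (0.20) and passed in neither fit. The list's median stayed between -0.71 and -0.41. Both scalings, the 1 CPM filter, limma-voom and leaving out Rn45s gave the same 4 calls, and these scalings moved the median of all genes by at most 0.01.

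Counts of genes lower in Eed cKO rose with no filter on low counts to 257 over all genes, 13 for the 38, 20 for the other mitosis genes and 20 for the S-phase genes, while the suprabasal genes that were higher numbered 11. In DESeq2 the counts were 273, 10, 19, 18 and 10, with 814 genes higher. The cause was not tested. The replicate block gave 269 lower genes, 15 of the 38, 20 other mitosis genes and 21 S-phase genes, and 10 suprabasal genes higher. The labels do not say that numbers pair animals, and deviations of same-numbered libraries correlated at 0.31, 0.1 and 0.03. Not every library correlated best with its own number, as control 2 did with Eed cKO 3 (0.12), and the numbers were not taken as pairs. The 0.31 of the replicates 1 was the highest correlation between groups. Replicate 1 was the lowest of its group for 34 of the 38 genes in control and 27 in Eed cKO. In both groups it also had the highest Rn45s share and the highest macrophage and Langerhans sum. Whether libraries of equal number shared a batch was not tested.

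Leaving out each library gave 302 to 456 genes higher and 35 to 118 lower. For the 38 genes the range was 1 to 11, for the other mitosis genes 0 to 14, for the S-phase genes 2 to 6, for the regulators 1 to 2 and for the suprabasal genes 5 to 9. With 3 libraries a group, a gene that misses the threshold is not shown to be equal between genotypes.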
